A study of Mus musculus with 11 samples.

Results

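The 8 genes described here belong to the 2-cell-like programme of mouse embryonic stem (ES) cells, or act before it, and were chosen by name from 22369 genes counted. They are the zinc-finger genes Zscan4c, Zscan4d and Zscan4f, the membrane-protein gene Tmem92 and the zinc-finger gene Zfp352, together with Dppa2 and Dppa4, which encode upstream activators, and Dppa3 (Stella). Messenger RNA was sequenced in 11 clonal ES lines, named here 16 to 26, with 1 library each. All belong to 1 group: EBRTcH3 cells in which ROSA26 drives a tetracycline-controlled transactivator, and which carry multiple barcoded piggyBac reporters driven by the mouse PGK promoter. Each line grew from a single colony picked after sorting for strong eGFP, so a line is 1 clone. No line without reporters was analysed here, and the comparisons are of clones with each other. All lines were kept in medium conditioned by BRL cells (60%) with leukemia inhibitory factor, the MEK inhibitor PD0325901 and the GSK-3 inhibitor CHIR99021.

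In cultures of mouse ES cells, a small and changing fraction of cells passes through a state that resembles the embryo at the stage when its own genome is switched on. Cells in that state transcribe the Zscan4 cluster, Zfp352, Tmem92, several multicopy gene families and MERVL retroviral elements, and the protein Dux drives much of the programme. DPPA2 and DPPA4 bind DNA together and are needed for Dux and its targets to come on, yet both are made in nearly all ES cells. DPPA3 protects the maternal genome from loss of methylation in the zygote and varies from cell to cell in ES cultures. In RNA from whole cultures, fewer cells in a state and less RNA per cell cannot be told apart.

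Promoter windows of 4 of the 8 members matched a RefSeq table on GRCm38.p6, each from 250 bases before to 50 bases after the annotated start. The Zscan4 windows are shown because the 3 copies are close to identical, which bears on how their reads could be assigned. The Zfp352 window is shown because it holds a repeated unit. It has no exact TATAAA but does hold the similar word tataag, and only the exact word was searched for. Zscan4c lies at chr7:11005495-11005794 (plus strand), Zscan4d at chr7:11166099-11166398 (minus strand), Zscan4f at chr7:11397665-11397964 (plus strand) and Zfp352 at chr4:90218570-90218869 (plus strand). Capitals mark TATAAA in the Zscan4 windows and the repeated unit GACAACACAC in the Zfp352 window.
Zscan4c: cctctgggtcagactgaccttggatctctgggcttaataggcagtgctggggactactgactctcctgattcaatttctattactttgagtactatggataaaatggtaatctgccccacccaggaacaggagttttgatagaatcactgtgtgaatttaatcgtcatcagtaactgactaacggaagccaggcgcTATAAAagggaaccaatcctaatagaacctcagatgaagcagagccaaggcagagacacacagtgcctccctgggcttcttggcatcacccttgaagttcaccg
Zscan4d: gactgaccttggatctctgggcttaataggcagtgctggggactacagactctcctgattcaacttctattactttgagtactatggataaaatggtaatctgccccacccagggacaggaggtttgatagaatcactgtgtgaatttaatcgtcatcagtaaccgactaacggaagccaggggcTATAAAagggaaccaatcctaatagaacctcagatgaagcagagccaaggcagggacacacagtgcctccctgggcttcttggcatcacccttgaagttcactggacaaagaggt
Zscan4f: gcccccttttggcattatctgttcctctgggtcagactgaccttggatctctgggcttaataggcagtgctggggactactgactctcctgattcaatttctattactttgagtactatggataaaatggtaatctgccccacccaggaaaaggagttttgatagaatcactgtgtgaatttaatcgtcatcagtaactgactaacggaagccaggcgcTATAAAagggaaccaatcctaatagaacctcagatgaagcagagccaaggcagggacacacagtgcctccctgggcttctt
Zfp352: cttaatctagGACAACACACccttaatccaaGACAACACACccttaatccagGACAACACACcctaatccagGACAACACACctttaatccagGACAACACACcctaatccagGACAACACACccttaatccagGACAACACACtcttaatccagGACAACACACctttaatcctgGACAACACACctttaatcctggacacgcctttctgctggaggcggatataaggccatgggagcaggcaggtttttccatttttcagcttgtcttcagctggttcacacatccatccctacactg
TATAAA began 54 bases before the annotated start of Zscan4c, 65 before that of Zscan4d and 31 before that of Zscan4f. It stood on the gene strand of 8.32% of all 32851 promoter windows and on either strand of 13.6%. GACAACACAC, the most frequent word of 10 bases in the Zfp352 window, occurred 9 times there and overlapped no TATAAA. Of all windows 0.0183% held at least 1 copy on the gene strand and 0.0517% on either strand. This unit was chosen after the sequence had been seen. None of these matches shows a bound site.

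The Zscan4 windows were 99.3% identical between Zscan4c and Zscan4f over 277 aligned bases, 97.4% between Zscan4d and Zscan4f over 266, and 97.2% between Zscan4c and Zscan4d over 289. Their longest transcripts were 97.5% to 99.6% identical. Of all stretches of 36 bases in a transcript, 23.1% in Zscan4c, 51% in Zscan4d and 11.3% in Zscan4f occurred in neither of the other copies. The sources used here do not say how reads with several matches were treated, so the split of reads among the 3 copies is uncertain, and their sum is given as well. The Zscan4 transcripts shared 0 such stretches with Tmem92, Zfp352, Dppa2, Dppa4 or Dppa3.

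The cells carried the transcripts that define ES cells. Pou5f1 stood at 863 ± 72.0 counts scaled to library size (CPM), Sox2 at 845 ± 84.8 and Nanog at 751 ± 90.04 (SD, n = 11 clones). Libraries held 10846005 to 16868500 counts in genes (median 14378599), and a floor of 3 counts corresponded to 0.173 to 0.284 CPM. Markers that define other cell types were low, with a highest count in any library of 1 to 78 for 7 fibroblast markers (1 for Col3a1, Lum and Dcn, 75 for Thy1 and 78 for Col1a1), 5 to 83 for 4 primitive endoderm markers (5 for Sox17, 83 for Gata4) and 5 to 29 for 4 trophoblast markers (9 for Cdx2, 29 for Gata3). It was 1 for Neurog2 and 128 for Pax6 among neural markers, and 3 to 20 for the mesoderm markers Mesp1, Mixl1 and T. Other genes of the same lists were well expressed, among them Sparc (270 ± 88.2 CPM), Lama1 (199 ± 60.9), Tubb3 (49.6 ± 21.7) and Tfap2c (48.2 ± 13.2). The members are listed in the files as Ensembl IDs: Dppa2 (ENSMUSG00000072419) and Dppa4 (ENSMUSG00000058550) on chromosome 16, Dppa3 (ENSMUSG00000046323) on chromosome 6 and Tmem92 (ENSMUSG00000075610) on chromosome 11, beside Zscan4c (ENSMUSG00000054272), Zscan4d (ENSMUSG00000090714) and Zscan4f (ENSMUSG00000070828) on chromosome 7 and Zfp352 (ENSMUSG00000070902) on chromosome 4.

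Dppa2 and Dppa4 were the most abundant members, and their levels differed little between clones. Dppa2 was lowest in clone 22 (76.6 CPM) and highest in clone 18 (115 CPM), with a median of 88.3 CPM. It averaged 91.3 ± 11.8 CPM, and the ratio of clone 18 to clone 22 was 1.51 (95% exact interval of the counts up to 1.62). Clones 16 (110 CPM) and 17 (97.7 CPM) came next after clone 18, and the other 8 lay between 76.6 and 91.1 CPM. Dppa4 was lowest in clone 19 (33.0 CPM) and highest in clone 16 (54.5 CPM), with a median of 45.7 CPM. It averaged 44.8 ± 6.64 CPM, and the ratio of clone 16 to clone 19 was 1.65 (1.47 to 1.85). The genes did not share an order: clone 22, lowest for Dppa2, held the level next to the highest of Dppa4 (52.8 CPM). All such intervals cover counting error only.

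The Zscan4 copies were low in every clone and differed between clones by far more than Dppa2 and Dppa4. Zscan4 proteins act in telomere lengthening and genome stability in mouse ES cells. Zscan4d was lowest in clone 17 (0.238 CPM) and highest in clone 26 (6.44 CPM), with a median of 2.20 CPM and a mean of 2.62 ± 2.13 CPM. Zscan4c stood at 0.159 CPM in clone 17 and at most 5.32 CPM, in clone 26 (median 1.76, mean 2.04 ± 1.66 CPM). Zscan4f had 0 counts in clone 17, where the floor of 3 counts was 0.238 CPM, and stood at most at 1.47 CPM, in clone 26 (median 0.677, mean 0.704 ± 0.515 CPM). The order of clones was nearly the same for the 3 copies, with clone 26 first, then clone 16, then clone 20 in each.

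Summed over the copies, Zscan4 stood at 13.2 CPM in clone 26, 10.0 in clone 16, 9.43 in clone 20, 7.52 in clone 23, 6.16 in clone 25 and 4.84 in clone 22. The sum was 3.15 CPM in clone 24, 1.79 in clone 19, 1.25 in clone 18, 1.22 in clone 21 and 0.397 in clone 17, where it rested on 5 counts. The clones formed a graded order over these levels. Of the 817 Zscan4 counts in all libraries, 48.7% were counted to Zscan4d, 38.1% to Zscan4c and 13.2% to Zscan4f. In the 8 clones with at least 30 Zscan4 counts the share of Zscan4d was 45.2% to 53.7%, and in all 11 clones the 95% Wilson interval of that share held the pooled value. A difference between clones in the share of Zscan4d was not detectable at this depth. No interval was computed for the shares of Zscan4c and Zscan4f. In clone 18, with 18 Zscan4 counts, the share of Zscan4f was 33.3% against 13.2% pooled, and this difference was not tested.

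Tmem92 and Zfp352 were as low as Zscan4. Tmem92 was lowest in clone 21 (0.476 CPM) and highest in clone 26 (8.74 CPM), with a median of 2.72 CPM and a mean of 3.24 ± 2.60 CPM. Zfp352 was lowest in clone 17 (0.159 CPM) and highest in clone 16 (2.65 CPM), with a median of 0.752 CPM and a mean of 1.03 ± 0.726 CPM. Clones 16 and 26 held the 2 highest levels of each of the 5 low genes (Zscan4c, Zscan4d, Zscan4f, Tmem92 and Zfp352), and clones 17, 18 and 21 ranked between 8 and 11 of 11 for each. Of the 55 values of these genes, 6 were at or under the floor of 3 counts. Clones next to each other in order had overlapping 95% Poisson intervals for each of these 5 genes, so only clones further apart in the order were distinguished by their counts.

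**Figure D1:**
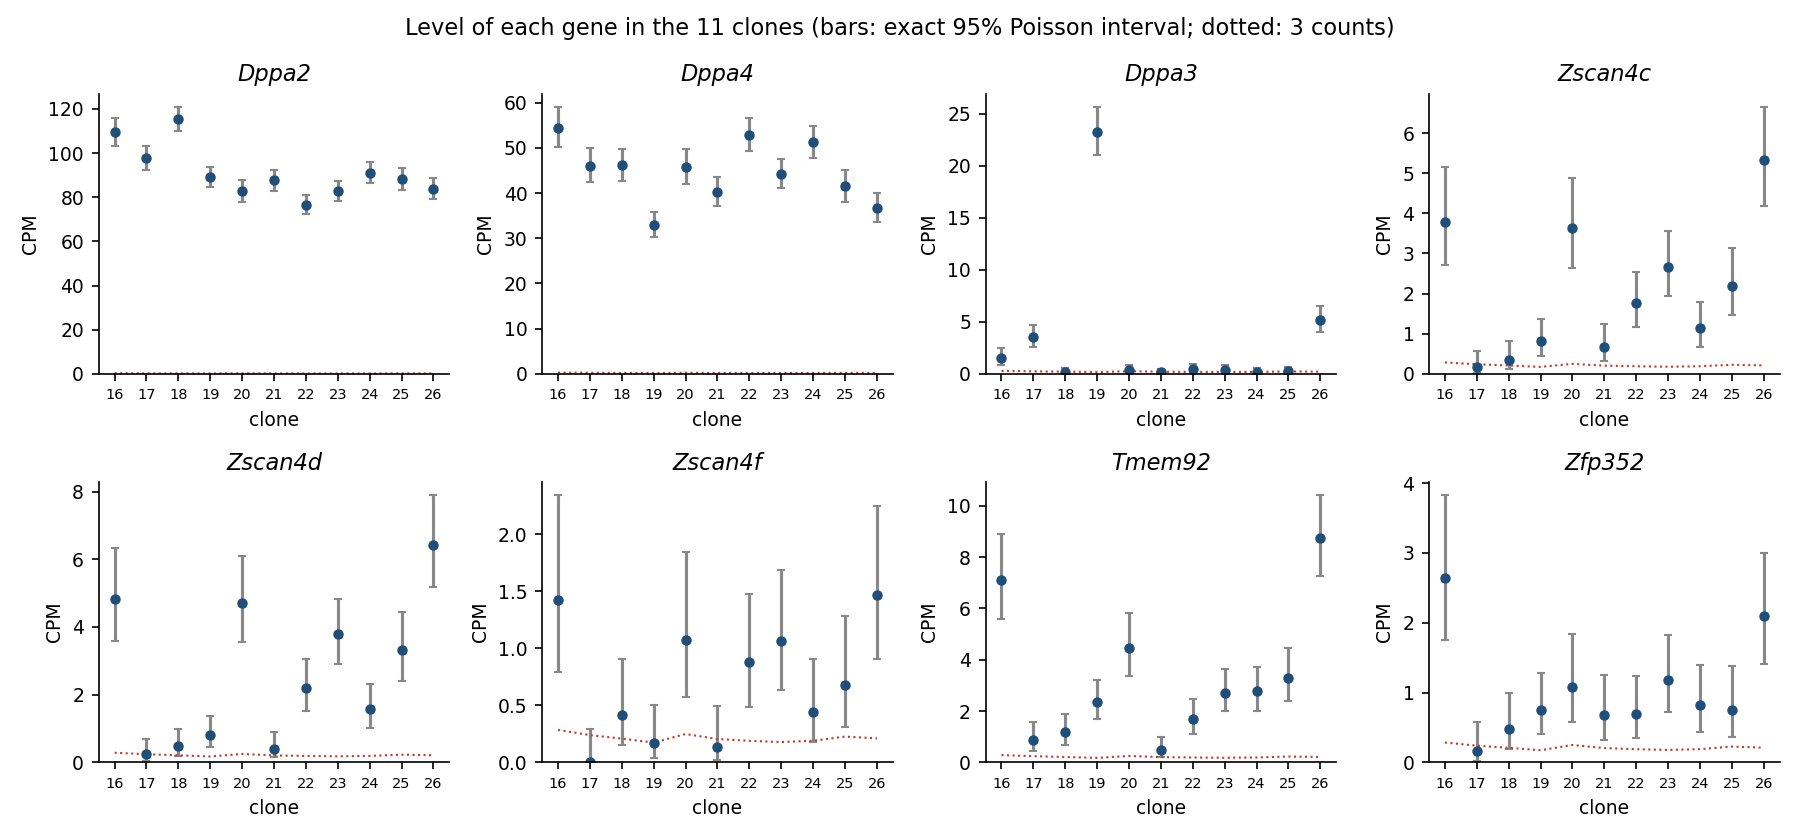
Level of each of the 8 genes in CPM by clone, with 95% Poisson intervals of the count as bars. Zscan4c, Zscan4d, Zscan4f, Tmem92 and Zfp352 are highest in clones 16 and 26, Dppa3 stands at 23.3 CPM in clone 19, and Dppa2 and Dppa4 lie between 76.6 and 115 and between 33.0 and 54.5 CPM.

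Dppa3 had another pattern. It stood at 23.3 CPM (403 counts) in clone 19, 5.18 CPM (74 counts) in clone 26, 3.50 CPM in clone 17 and 1.51 CPM in clone 16, and between 0.136 and 0.440 CPM in the other 7, with a median of 0.414 CPM. In 4 clones it was at or under the floor. The mean of 3.22 ± 6.85 CPM was set by clone 19: the other 10 clones averaged 1.21 ± 1.74 CPM. Clone 19, highest for Dppa3, held only 1.79 CPM of summed Zscan4, while clone 26 was high for both. Clones 19 and 26 also had the lowest levels of the ERK feedback gene Spry4 (4.68 and 21.4 CPM) and of the ERK-responsive factor gene Etv4 (6.58 CPM in clone 19). The summed levels of 2 lists of markers of other cells were highest in clone 19 as well. The primitive endoderm list ran from 379 CPM (clone 24) to 733 CPM (clone 19), and the trophoblast list from 71.1 CPM (clone 21) to 132 CPM (clone 19). Clone 17 was close behind for the primitive endoderm list (702 CPM), whose sum in clone 19 was mostly Sparc. Of the 11 genes of the primitive endoderm list 4 were highest in clone 19, among them Sparc (472 CPM) and Gata6 (0.924 CPM). Of the 10 genes of the trophoblast list 3 were, namely Tfap2c (76.3 CPM), Krt8 (34.6 CPM) and Cdx2 (0.520 CPM). In the fibroblast, mesoderm and neural lists, 3 of 14, 3 of 8 and 1 of 7 genes were highest in clone 19 too. The share of all genes highest in clone 19 was not counted, so these counts show no trait particular to a list. Sox17 was at most 0.376 CPM in any clone, and Tpbpa of the trophoblast list was listed at 0 in all. The part of these differences in the Dppa3 level was not tested.

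Per kilobase of exon, which allows levels to be set between genes, Dppa2 stood at 37.3 and Dppa4 at 26.9 CPM per kb. The order went on with Dppa3 at 3.61, Tmem92 at 1.48, Zscan4d at 1.15, Zscan4c at 0.897, Zfp352 at 0.453 and Zscan4f at 0.360 CPM per kb. The places of the Zscan4 copies in this order are uncertain, because the split of reads among them is. The share of transcript stretches found in neither other copy, given above, fell in the same order. It was 51% in Zscan4d, 23.1% in Zscan4c and 11.3% in Zscan4f. The part of this share in the order of the copies was not tested, and no value per kb is given for their sum. Dppa2 was above Dppa4 in 10 of 11 clones and Dppa4 above Dppa3 in 10 of 11. Dppa3 was above Tmem92 in only 3 of 11, so that step of the order rests on clone 19. Tmem92 and Zscan4d (8 of 11), Zscan4c and Zfp352 (8 of 11), and Zfp352 and Zscan4f (7 of 11) were neighbours whose order changed between clones.

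Whether a gene spread more than others of like level was tested with an edgeR goodness-of-fit test against the dispersion trend, with Benjamini-Hochberg adjustment over the 12479 genes that averaged 1 CPM or more. Of these genes 959 passed, or 7.68%. Of the members, 7 met that filter and 4 passed: Dppa3 (adjusted p = 1.10e-23 by edgeR), Zscan4d (9.02e-05), Zscan4c (0.00140) and Tmem92 (0.00403). Zfp352 did not pass (adjusted p = 0.522 by edgeR, 0.0779 unadjusted), nor did Dppa2 and Dppa4 (adjusted p = 1 each). Zscan4f was under the filter. With 1 library per clone, these p-values measure only the spread between these libraries, and differences between clones and between libraries cannot be told apart.

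The Tmem92 call rested on single clones, with an adjusted p of 0.0675 by edgeR without clone 21 and 0.0674 without clone 26. The coefficient of variation was 213% for Dppa3, 80.2% for Tmem92, 81.3% for Zscan4d, 81.1% for Zscan4c and 70.5% for Zfp352, against a median of 38.8% over 2125 genes of 1 to 5 CPM. Zfp352, at a mean of 1.03 CPM, lies at the low edge of that band, where counting error is larger. The coefficient was 73.0% for Zscan4f, whose mean of 0.704 CPM lies under the band. It was 12.9% for Dppa2 and 14.8% for Dppa4, against a median of 13.3% over 5287 genes of 30 to 200 CPM. Among genes of like level, 99.6% had a smaller coefficient than Dppa3, 92.3% to 92.9% a smaller one than Tmem92, Zscan4c and Zscan4d, and 88.6% a smaller one than Zfp352. Dppa2 and Dppa4 were close to the middle, with 50.7% and 53.1% below them. All 8 members spread beyond counting error in a chi-square test of the counts, as did 86.2% of the 15257 genes with at least 20 counts.

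**Figure D2:**
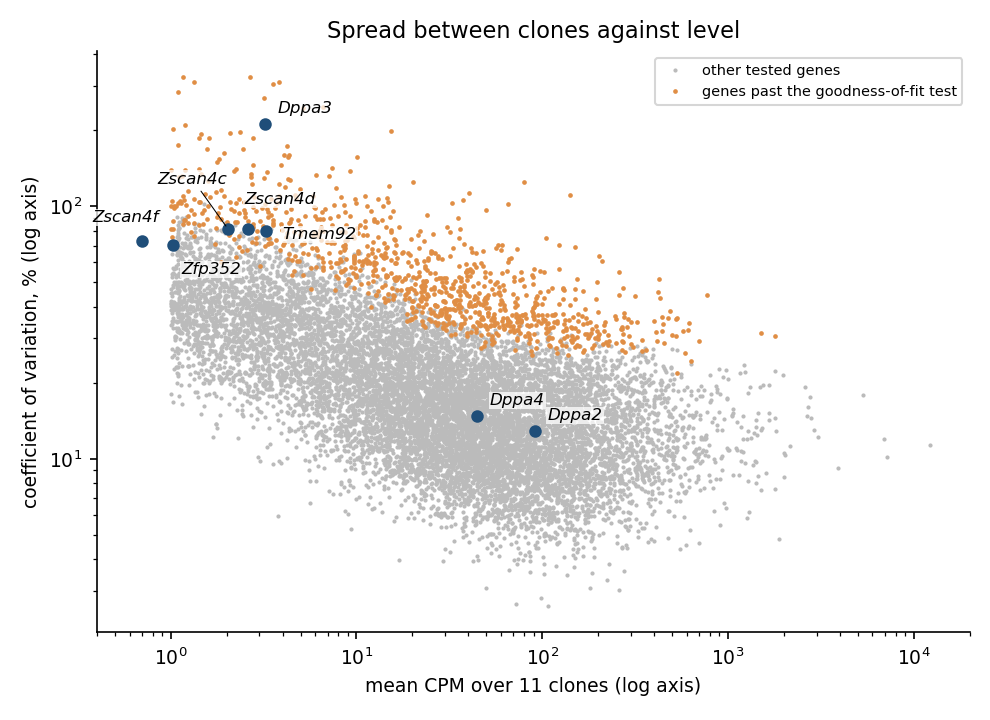
Coefficient of variation over the 11 clones against mean CPM, both on log axes, with 1 point per gene, genes past the goodness-of-fit test in orange and the 8 genes in blue. Dppa3 (213%) lies above nearly all genes of its level, the Zscan4 copies, Tmem92 and Zfp352 (70.5% to 81.3%) lie near the upper edge, and Dppa2 (12.9%) and Dppa4 (14.8%) in the middle.

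No member was called in a single clone. The edgeR quasi-likelihood test set each clone against the other 10, with adjustment over 137269 pairs of gene and clone, of which 144 were called higher (0.105%) and 149 lower (0.109%). Of the 77 pairs with a tested member, 0 were called by edgeR and 0 by DESeq2, with 7 and 9 at an unadjusted p under 0.05. With so small a share called over all pairs, 0 of 77 says little about the members. The share of all pairs at the unadjusted threshold was not counted, so the 7 and 9 have no background. The lowest adjusted p was that of Dppa3 in clone 19, with 23.3 CPM in clone 19 against 1.21 ± 1.74 CPM in the other 10, a log2 fold change of 4.27 ± 1.06 (SE) and an adjusted p of 0.210 by edgeR. Without clone 26 the fold change was 4.95 and the adjusted p 0.0593, the lowest over the alternatives tried, the highest being 0.327. The SE restates the test and holds no spread within a clone.

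The low genes other than Dppa3 went up and down together over the clones. Of the 28 pairs of members, 10 passed a permutation test of Pearson's r of log2(CPM + 1) over 11 clones, with Benjamini-Hochberg adjustment over the pairs, and these were the 10 pairs among Zscan4c, Zscan4d, Zscan4f, Tmem92 and Zfp352. The 3 pairs of Zscan4 copies had r of 0.94 to 0.99 and share most of their sequence, so their counts are not independent of how reads were assigned. The 7 pairs between genes that share no stretch of 36 bases had r of 0.82 to 0.90 and Spearman's rho of 0.87 to 0.94. Their adjusted p-values were 0.000840 to 0.00395 by permutation. All but the pair of Tmem92 with Zfp352 set Tmem92 or Zfp352 against a Zscan4 copy. Because the copies follow each other so closely, the 7 pairs are not independent of one another. Zscan4d and Tmem92 had r = 0.90 and rho = 0.93, and r = 0.85 without clones 17 and 26, those farthest from the median of Zscan4d. Tmem92 and Zfp352 had r = 0.87, and 0.92 without clones 21 and 26. Over these 7 pairs, leaving out any 1 clone gave r no lower than 0.77, and leaving out the 2 clones farthest from the median gave r of 0.70 to 0.92.

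No relation of Dppa2 or Dppa4 with this pattern passed the test. With the 5 low genes, r was -0.37 to -0.01 for Dppa2 and -0.00 to 0.25 for Dppa4, and no pair passed. With 1 clone left out, r lay between -0.68 and 0.22 for Dppa2 and between -0.34 and 0.53 for Dppa4. Without clone 16, r of Dppa2 was -0.68 with Zscan4c (adjusted p = 0.0582 by permutation), -0.63 with Zscan4d and -0.53 with Zscan4f and with Zfp352. Without clones 16 and 18, those farthest from the median of Dppa2, r was -0.75 with Zscan4f and -0.66 with Zscan4c. The clones with the most Zscan4, 26 and 16, stood at 83.8 and 110 CPM of Dppa2, on either side of its median, and at 36.7 and 54.5 CPM of Dppa4, the lowest but 1 and the highest of the 11. Dppa2 and Dppa4 had r = 0.24 with each other (adjusted p = 0.898 by permutation). With 11 clones and a narrow range of both factors, a weak or moderate relation would not have been detectable. Even r of -0.68, for Dppa2 with Zscan4c without clone 16, did not pass. Dppa3 had r of -0.18 to 0.20 with the 5 low genes. Dppa4 and Dppa3 had r = -0.63 (p = 0.0352, adjusted p = 0.0896 by permutation, rho = -0.21), and r = 0.29 without clones 19 and 26, so that relation rested on those clones. Of 16 relations of the members with library total and with the number of genes detected, 0 passed (r = -0.46 to 0.29, adjusted p of at least 0.725 by permutation).

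**Figure D3:**
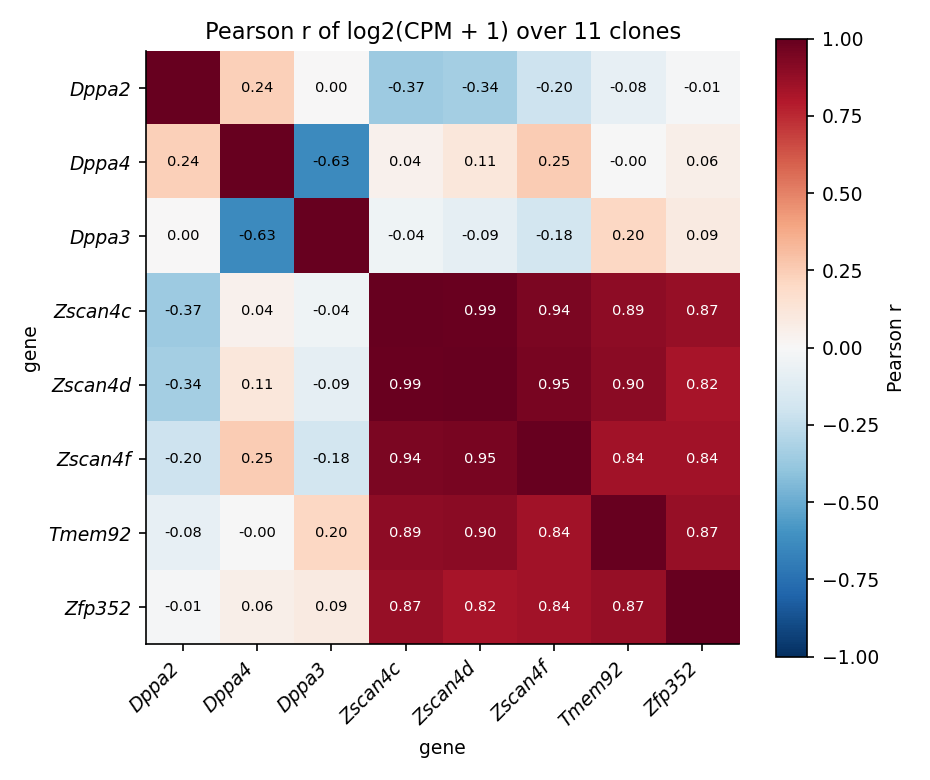
Pearson's r of log2(CPM + 1) over 11 clones for each pair of the 8 genes, on a colour scale of -1 to 1. The block of Zscan4c, Zscan4d, Zscan4f, Tmem92 and Zfp352 holds r of 0.82 to 0.99, and pairs with Dppa2, Dppa4 or Dppa3 lie between -0.63 and 0.25.

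**Figure D4:**
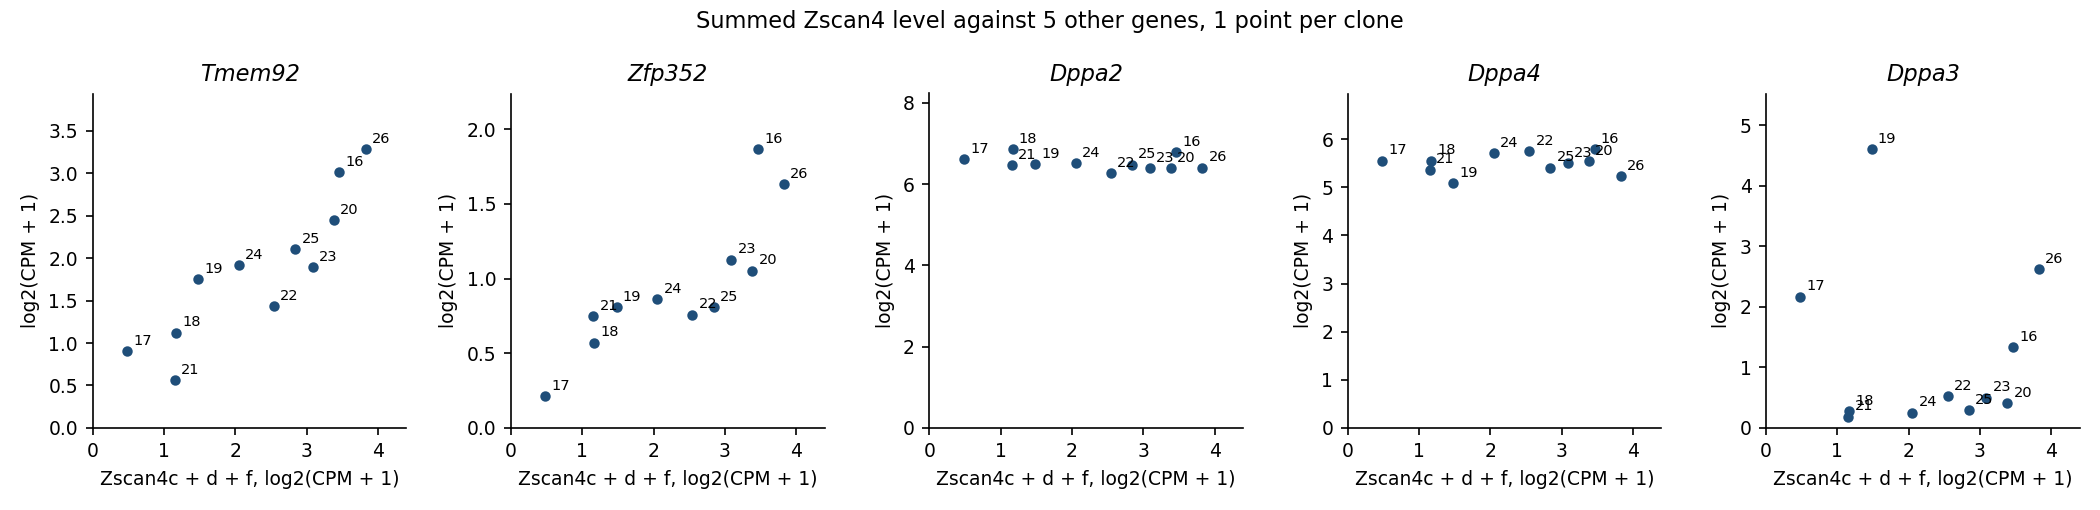
Level of 5 genes (y axes, log2(CPM + 1)) against the summed level of the 3 Zscan4 copies (x axes, same scale), 1 point per clone, labelled by clone. Tmem92 (r = 0.89) and Zfp352 (r = 0.84) climb with Zscan4, Dppa2 (r = -0.35) and Dppa4 (r = 0.11) are near level, and Dppa3 (r = -0.12) is set apart in clone 19.

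The genes most like the summed Zscan4 level, among 12477 tested genes other than Zscan4c and Zscan4d, were 2 genes with no symbol in the tables used (ENSMUSG00000070826, r = 0.97, and ENSMUSG00000071217, r = 0.97), Gm2016 (r = 0.97), BB287469 (r = 0.95) and Gm13119 (r = 0.95). Whether the 2 genes with no symbol share sequence or reads with the Zscan4 copies was not tested. Tmem92 ranked 12 and Zfp352 ranked 22 among these genes, and 43 in all had r of at least 0.8. Dppa4 ranked 5093, Dppa3 7856 and Dppa2 10284. Gm13119 was also the gene most like Tmem92 (r = 0.93), followed by Cacna1s, an unnamed gene and Fam124a (r = 0.92 each) and by ENSMUSG00000070826.

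Other genes of the 2-cell-like state from a list of 43, drawn up with earlier results of these data known, were mostly low as well: 26 were in the table and 10 met the filter. Of these 10, 6 had r of at least 0.8 with summed Zscan4 (60%, median r = 0.83), against 43 of 12477 tested genes (0.345%, median r = 0.02). The 6 were the initiation factor 1A-like genes Gm2016 and Gm8300 and the deubiquitinase genes Usp17la, Usp17lb, Usp17lc and Usp17le. Gm8300 was lowest in clone 17 (0.795 CPM) and highest in clone 26 (7.34 CPM), and Usp17lc stood at 0 in clone 18 and 4.62 CPM in clone 26. The members of each of these families share some sequence with one another, and none shares a stretch of 36 bases with Zscan4. Of 16 listed genes under the filter, 5 reached r of 0.8 (median r = 0.70).

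Not every listed gene followed Zscan4. Pramel6, a PRAME family gene, ran from 0.252 CPM (clone 24) to 4.08 CPM (clone 22) with r = -0.42, and Pramel7 had r = -0.44. Zfp600 stood at 73.3 ± 18.6 CPM (r = 0.03) and Ddit4l, a regulator of mTOR signalling, at 8.77 ± 3.27 CPM (r = 0.42). Calcoco2, an autophagy receptor, ran from 16.3 CPM (clone 24) to 173 CPM (clone 19) with r = -0.17, and so was highest in the clone that was highest for Dppa3. In the goodness-of-fit test 5 of the 10 passed, namely Gm8300 (adjusted p = 0.00706 by edgeR), Gm2016 (0.0208), Usp17lc (0.000704), Pramel6 (0.00344) and Calcoco2 (6.18e-31), with 2 passing under the dispersion trend of DESeq2.

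**Figure D5:**
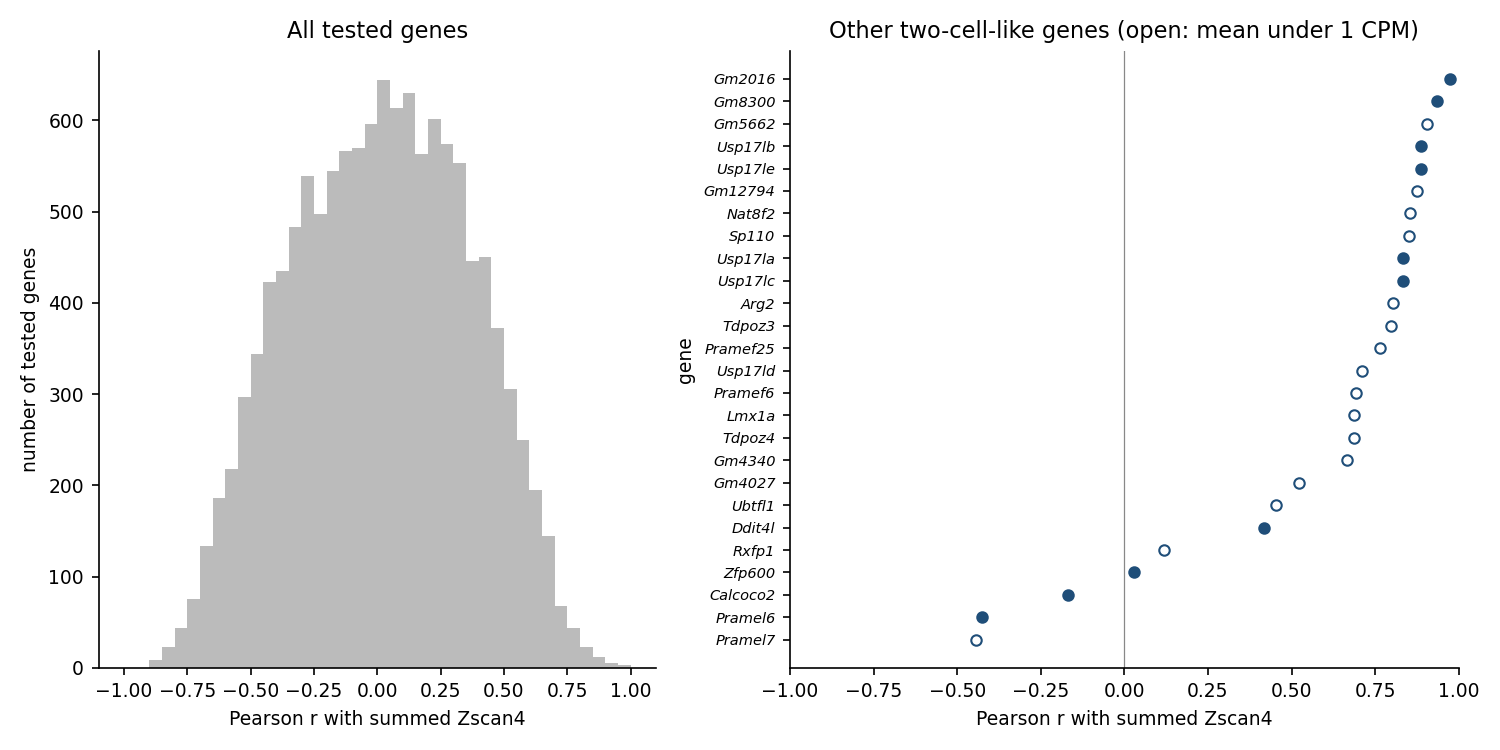
Pearson's r with the summed Zscan4 level over 11 clones for the listed 2-cell-like genes and for all tested genes. Of the 10 listed genes that met the filter, 6 lie at 0.8 or above, while the median of all tested genes is 0.02.

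Listed regulators of the 2-cell-like state ranged widely in mean level, from Ring1 at 11.1 CPM to Ncl at 2906 CPM. Few passed the test of spread, as was so for all tested genes. Of 8 genes listed as activators, only 5 were found by symbol among the genes counted, so the list is covered in part. Of these 5 tested activators 0 passed the edgeR goodness-of-fit test and 0 were at an unadjusted p under 0.05. Under the dispersion trend of DESeq2 0 passed. Among the genes so listed, the T-box factor Tbx3 stood at 707 ± 105 CPM, Trp53 at 397 ± 42.4 and the zinc-finger gene Zfp281 at 210 ± 38.2. Whether each listed gene, Zfp281 among them, acts as an activator in these cells was not tested. Of 36 tested repressors 3 passed, a share near the 7.68% of all genes, and 5 activators are too few to be told from it. Lin28a, which with nucleolin and TRIM28 restrains Dux, ran from 49.8 CPM (clone 19) to 445 CPM (clone 20). The DNA demethylase Tet2 ran from 308 CPM (clone 26) to 1005 CPM (clone 16), and the chromatin remodeller Atrx from 293 CPM (clone 25) to 695 CPM (clone 17). The most abundant were Ncl at 2906 ± 379, Trim28 at 1794 ± 136 and Tet1 at 1061 ± 161 CPM.

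Related groups of genes were counted in the same test, which 7.68% of all tested genes passed. Of 14 tested telomere genes 1 passed (Atrx), and Rif1, which holds back the 2-cell-like state, stood at 930 ± 84.1 CPM and the telomerase factor Dkc1 at 299 ± 46.9 CPM. Of 18 naive pluripotency genes 1 passed, Utf1, at 76.6 CPM (clone 19) to 239 CPM (clone 17), with Tfcp2l1 at 1971 ± 423, Esrrb at 1387.5 ± 176 and Tdgf1 at 992 ± 110 CPM. Of 14 germline genes 5 passed: Dazl, Hormad1, Stk31, Sohlh2 and Piwil2. Dazl, an RNA-binding protein of germ cells, ran from 19.9 CPM (clone 24) to 112 CPM (clone 21). With summed Zscan4, r was -0.29 for Dazl and -0.59 for Hormad1, and 0.41 for Stk31, 0.31 for Sohlh2 and 0.27 for Piwil2. Rpl10l stood at 113 ± 28.8 and Tex19.1 at 42.2 ± 6.94 CPM.

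Markers of other cells were also set beside these genes, again with 7.68% of all tested genes as the background. Of 8 tested fibroblast markers 1 passed (Col1a1, at most 4.50 CPM), and the most abundant were Pdgfrb, Mmp2 and Fbn1, at 11.0 to 9.38 CPM on average. Of 7 primitive endoderm markers 3 passed (Lama1, Col4a1 and Sparc), of 5 trophoblast markers 1 (Krt8, beside Tfap2c and Eomes), and of 4 neural markers 3 (Pax6, Nes and Tubb3, beside Map2). Of 3 mesoderm markers (Eomes, Kdr and Mesp2) 0 passed, 1 was at an unadjusted p under 0.05, and 0 passed under the dispersion trend of DESeq2. The fibroblast list summed to between 33.9 CPM (clone 16) and 62.2 CPM (clone 22), and the mesoderm list to between 7.14 CPM (clone 26) and 20.8 CPM (clone 23). Clones 16 and 26, highest for Zscan4, ranked 11 and 9 of 11 for the fibroblast list, 3 and 8 for primitive endoderm, 3 and 9 for trophoblast, 10 and 4 for neural and 5 and 11 for mesoderm genes. The part of these genes in the Zscan4 level was not tested.

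The levels of the chromosomes around the members did not differ much between clones. Over the 24 expressed neighbours of each member, the median log2 level relative to the median clone lay between -0.13 and 0.20 for every member and clone. Around the Zscan4 cluster it lay between -0.07 and 0.14, and around Dppa2 and Dppa4, which are neighbours on chromosome 16, between -0.13 and 0.07. Gene order came from a later build than the counts, so only the identity of neighbours was used.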

How the data were processed

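The authors deposited raw counts, whole numbers of reads for 22369 mouse Ensembl gene IDs in 11 libraries. The tools named in the submitters' processing notes are Bowtie 0.12.7 and TopHat 1.4.0, and the builds mm9 and hg19. The name of the deposited file gives Ensembl release 66 and hg19, yet its IDs are those of mouse genes. Not given in the sources used here were the counting tool, the use of strand, the read length and how multi-mapped reads were counted. Total RNA came from an RNeasy kit and libraries from a TruSeq RNA kit, per the labels' protocols. Symbols were found for 20777 IDs and not for 1592. GENCODE vM21 on GRCm38 gave symbols, gene order, exon lengths and transcripts, and RefSeq gave promoters.

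CPM were computed on TMM library sizes (factors 0.971 to 1.04) with edgeR 4.0.16 in R 4.3.3. Tests were an intercept-only negative binomial goodness-of-fit test, a Poisson chi-square test, quasi-likelihood tests of each clone against the other 10, and permutation tests (100000 resamples, two-sided) of correlations of log2(CPM + 1), all at an adjusted threshold of 0.05. Alternatives used DESeq2 1.42.0. Other steps ran in Python 3.11.15 with SciPy 1.17.1, NumPy 2.4.6, matplotlib 3.10.9 and pandas 2.3.3. Tests were checked on simulated data. The 8 members, the lists and the alternatives were chosen with earlier results of these data known. Named genes are the members, the 3 highest and all variable genes of each of 11 lists (for germline genes, telomere genes, naive factors, regulators and markers of other cells, among others), the 5 genes most like summed Zscan4, Tmem92, Dppa2, Dppa4 and Dppa3, and Pou5f1, Nanog and Sox2. Genes named outside this rule were chosen after their values were seen.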

Additional observations from a re-analysis of the deposited data

How the results depend on the processing

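The number of members called variable was 4 with size factors or the dispersion trend of DESeq2, with a filter of 0.1 CPM, and 3 to 4 with 1 clone left out. It was 0 with a filter of 5 CPM, under which only Dppa2 and Dppa4 were tested. Without clone 16 or clone 21, Dppa4 and Dppa3 passed the permutation test (r = -0.73, adjusted p = 0.0412, and r = -0.72, adjusted p = 0.0496), so that 11 pairs of members passed in place of 10. Spearman's rho and a pseudocount of 0.25 CPM gave 10. All 8 members spread beyond counting error and 0 clone calls were made on a member in the alternatives run. Every pair that passed kept its sign in the alternatives run. Pairs that did not pass could change sign: Dppa2 with Tmem92 had r = -0.08, and 0.14 without clone 18, and Dppa4 with Zfp352 had r = 0.06, and -0.34 without clone 16. No paired analysis was possible because the clones form 1 group and share no replicate numbers. Depth limits the 5 low genes: with 3 counts at 0.173 to 0.284 CPM, differences between clones at the low end could not be resolved.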

Other observations

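The genes most like Dppa2 over 11 clones were the helicase gene Ddx23 (r = 0.97), the RNase gene Zc3h12a (r = 0.95), the transcription factor gene Atf1 (r = 0.93), Tmbim6 (r = 0.93) and the acetyltransferase gene Ep300 (r = 0.91), of which 4 lie on chromosome 15 while Dppa2 lies on chromosome 16. Over 147 expressed genes of the stretch of chromosome 15 between them, chosen after the values were seen, the median log2 level relative to the median clone was 0.41, 0.48, 0.44 and 0.41 in clones 16 to 19 and between -0.16 and -0.05 in the other 7. Dppa2 stood at 110, 97.7, 115 and 89.0 CPM in clones 16 to 19 and at 76.6 to 91.1 CPM in the other 7. Without clones 16 to 19 the r of these genes with Dppa2 was 0.71 to 0.90 over 7 clones.

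The genes most like Dppa4 were the condensin gene Ncapg (r = 0.90), the zinc-finger gene Sall4 (r = 0.89), Fam229b, the replication gene Mcm2 and Gm38393 (r = 0.88 each). The genes most like Dppa3 were the NF-kappa-B subunit gene Relb (r = 0.97), Nwd1 (r = 0.96), Naa35, Uqcr10 and Gpnmb (r = 0.95 each), with 281 genes at r of at least 0.8, against 43 for summed Zscan4 and 50 for Dppa4. Without clone 19 these 5 had r of 0.94, 0.88, 0.88, 0.90 and 0.87. Gpnmb, a transmembrane glycoprotein, stood at 18.3 CPM in its highest clone against 0.440 CPM in its lowest.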
